A study of Mus musculus with 3 samples.

Results

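The Period genes Per1, Per2 and Per3 and the cryptochrome genes Cry1 and Cry2 encode the repressors at the core of the circadian clock, and binding of the nuclear receptors REV-ERB alpha and REV-ERB beta at these genes was examined in mouse liver by ChIP-seq (sequencing of DNA that an antibody pulls down with its protein). Members were all peaks of either receptor whose centre lay in 1 of 5 fixed windows of the mm9 assembly, 387 kb in all. The windows were chromosome 11 from 68888000 to 68943000 for Per1, chromosome 1 from 93292000 to 93376000 for Per2, chromosome 4 from 150357000 to 150439000 for Per3, chromosome 10 from 84574000 to 84668000 for Cry1 and chromosome 2 from 92223000 to 92295000 for Cry2. They held 21 of the 24461 REV-ERB alpha peaks and 18 of the 22097 REV-ERB beta peaks, at 29 separate sites.

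Livers came from male C57BL/6 mice of 20 weeks, held for 3 days under 12 hours of light and 12 hours of darkness and taken at zeitgeber time 8 (8 hours after lights on). The 3 libraries were 1 for each receptor antibody and 1 liver input with no antibody. No genotype other than the strain and no treatment other than the light cycle is named in the labels, and the number of animals behind each library is not given in the sources used here. With 1 library per antibody no value has a replicate error, and a library of whole liver does not separate its cell types.

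PER and CRY proteins accumulate with a daily rhythm and, in a complex, inhibit the activators CLOCK and BMAL1, which switch on the Per and Cry genes through E-box elements. REV-ERB alpha and REV-ERB beta (genes Nr1d1 and Nr1d2) form a second loop: they bind response elements built on the core AGGTCA, which they share with the activating ROR receptors, and recruit corepressors. Cry1 is a textbook target of that second loop, and Per1 and Per2 also respond to hormonal and signalling inputs.

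Promoter sequences of these genes show which of the known clock elements stand near their start sites. RefSeq promoters (250 bases before to 50 after a start) were at hand for 4 of the 5 genes, with 2 starts for Per1 and none for Per2. Both strands were searched for 6 motifs: the receptor core AGGTCA, its extended form with A/T-rich bases before it and the direct repeat of the core with 2 bases between (both of which contain the core), the E-box CACGTG, the D-box TTANGTAA and the cAMP response element TGACGTCA. The 3 promoters with a match are printed because each carries a different combination; capitals mark the matched bases.
Per1 upstream start (GRCm38.p6, chr11:69098699-69098998, plus strand): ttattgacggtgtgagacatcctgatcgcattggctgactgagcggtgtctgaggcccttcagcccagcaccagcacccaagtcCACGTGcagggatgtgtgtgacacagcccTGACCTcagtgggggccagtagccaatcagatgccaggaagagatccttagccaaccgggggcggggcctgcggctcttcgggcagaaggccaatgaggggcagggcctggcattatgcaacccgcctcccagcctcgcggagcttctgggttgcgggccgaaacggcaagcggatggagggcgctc
Per3 (GRCm38.p6, chr4:151044616-151044915, minus strand): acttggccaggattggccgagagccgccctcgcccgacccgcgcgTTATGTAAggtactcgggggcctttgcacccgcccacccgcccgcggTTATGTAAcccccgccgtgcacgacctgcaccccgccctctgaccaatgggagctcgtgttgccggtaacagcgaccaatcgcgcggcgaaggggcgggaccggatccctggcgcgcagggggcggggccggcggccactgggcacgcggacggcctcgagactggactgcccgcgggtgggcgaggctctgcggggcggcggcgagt
Cry1 (GRCm38.p6, chr10:85185005-85185304, minus strand): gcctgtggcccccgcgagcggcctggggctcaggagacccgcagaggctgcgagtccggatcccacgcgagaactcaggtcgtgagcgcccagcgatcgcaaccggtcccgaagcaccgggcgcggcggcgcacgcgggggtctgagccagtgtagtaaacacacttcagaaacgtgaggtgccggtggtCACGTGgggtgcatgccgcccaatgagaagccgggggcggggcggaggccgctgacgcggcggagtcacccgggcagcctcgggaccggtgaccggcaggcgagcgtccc

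The upstream Per1 promoter held 1 E-box, 166 bases before the start, and 1 receptor core on the opposite strand (read as TGACCT), 137 bases before the start at its upstream end. The core AGGTCA occurred in 16.3% of all 32851 RefSeq promoters of this length, and the E-box in 7.15%. In Per3, 2 D-boxes stood 205 and 158 bases before the start, a motif found in 2.32% of all promoters. Cry1 had 1 E-box, 60 bases before the start. The other Per1 promoter and the Cry2 promoter had none of the 6 motifs. Neither the extended core nor the direct repeat was found in any of the 5 promoters; they occurred in 0.219% and 0.00913% of all promoters. These promoters are in another assembly than the peaks, so no peak was placed on a promoter, and the presence of letters is not a measure of binding.

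The loci differed widely in how many sites they carried. Per2 held 10 alpha and 8 beta peaks in 84 kb, or 11.9 and 9.52 peaks per 100 kb, the highest numbers among the 5 loci for both receptors. Cry2 held 6 alpha and 3 beta peaks in 72 kb, Per1 held 3 and 4 in 55 kb, and Cry1 held 2 and 2 in 94 kb. Per3 held 0 alpha peaks and 1 beta peak in 82 kb. To read these numbers against the genome, all chromosomes except 8, on which no beta peak was at hand, were cut into adjoining tiles of the same width as each window. At least as many peaks as in the Per2 window were found in 0.35% of the tiles for alpha and in 1.11% for beta. For Cry2 the percentages were 2.08% for alpha and 9.0% for beta, and for Per1 6.64% and 3.81%. Cry1 was less unusual, with 19.2% and 18.6% of tiles holding at least 2 peaks. Of the tiles as wide as the Per3 window, 69.7% also had no alpha peak, and 28.1% had at least 1 beta peak, as Per3 has, while 71.9% had none. The tiles include long stretches with few genes. When only tiles with a peak of either receptor were counted, the percentages became 0.996% and 3.17% for Per2, 6.41% and 27.7% for Cry2, 23.5% and 13.5% for Per1, and 51.7% for Cry1 alpha; among them 12.9% had no alpha peak and 80.7% had at least 1 beta peak at the width of Per3.

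**Figure D1:**
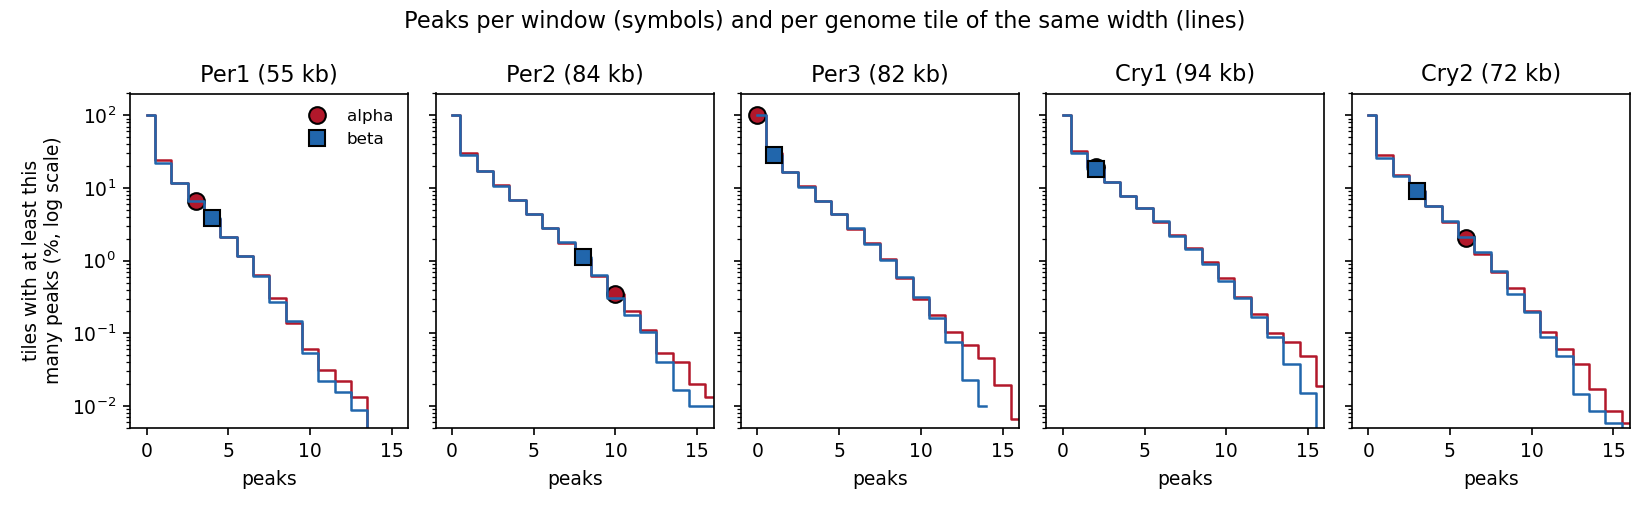
Share of genome tiles (percent, log scale) with at least the number of peaks on the x axis, for alpha (red line) and beta (blue line) in tiles as wide as each window; symbols mark the count in the window itself. The Per2 symbols lie farthest down, at 10 alpha and 8 beta peaks, while the Cry1 symbols coincide at 2 peaks and Per3 has 0 and 1.

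Other genes lie close to these loci. In the GRCm38.p6 annotation, the protein-coding genes within 20 kb were Vamp2, Hes7 and Aloxe3 for Per1, Ilkap and Hes6 for Per2, Uts2, Gm38529, Vamp3 and Camta1 for Per3, Tmem263 and Mterf2 for Cry1, and Mapk8ip1 and Slc35c1 for Cry2. A peak in a window is therefore near the named gene but not shown to act on it.

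**Figure D2:**
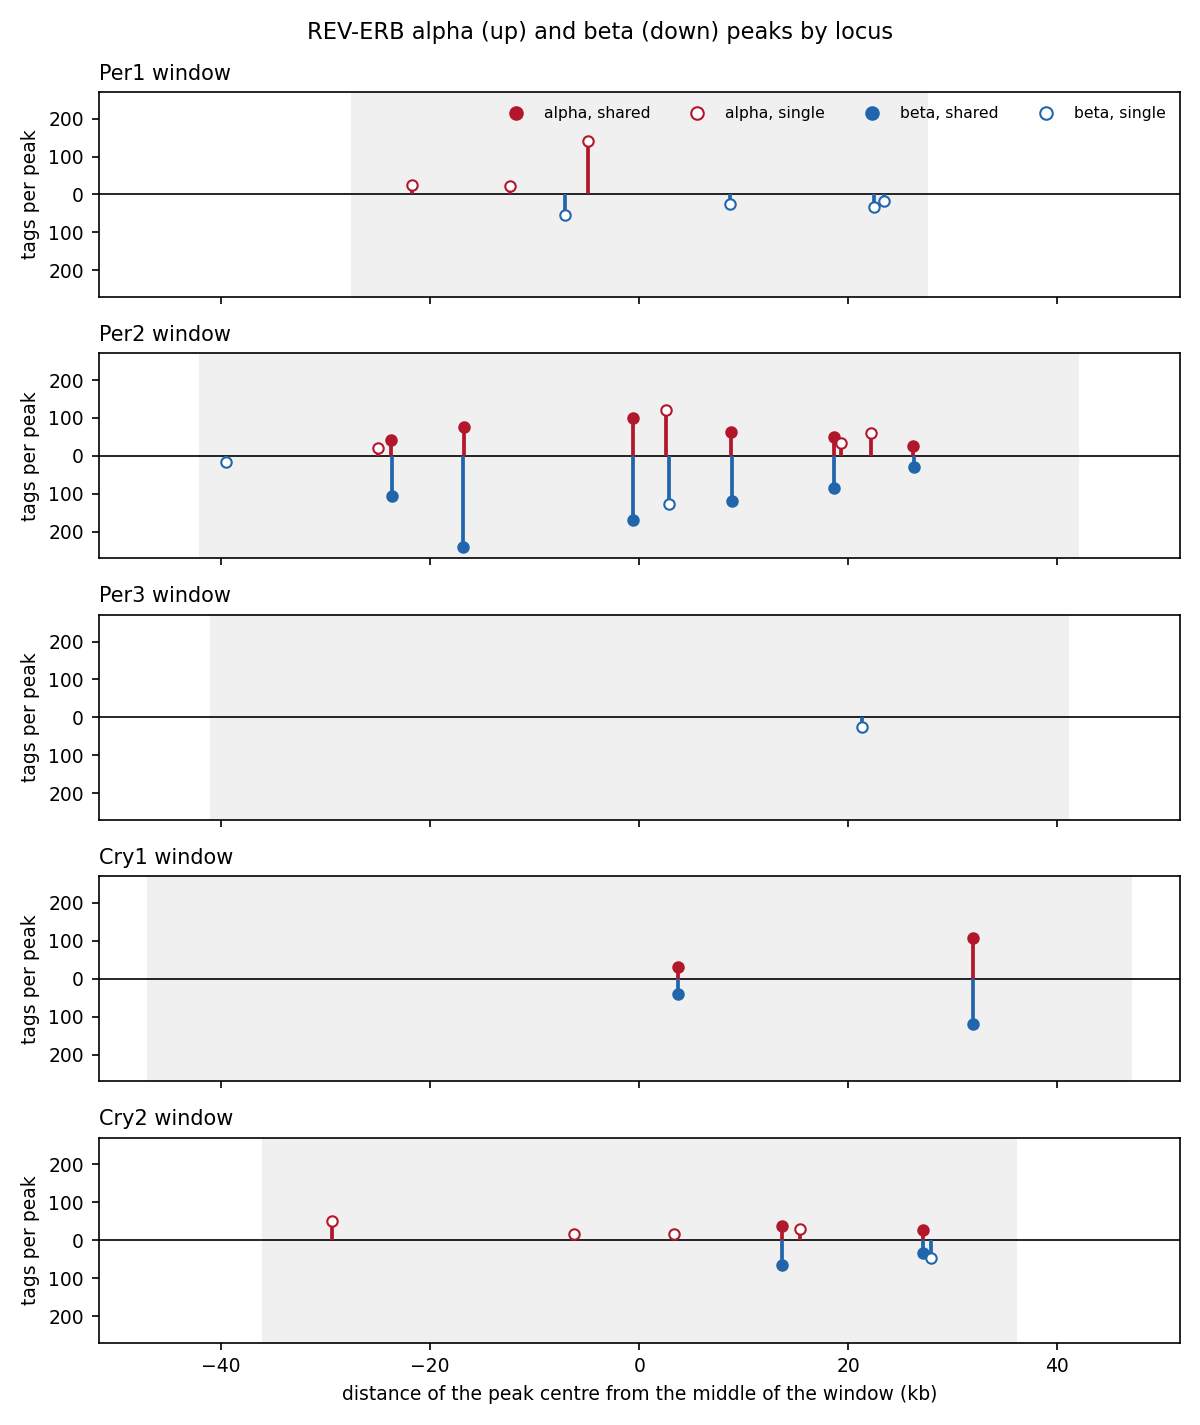
Peaks of REV-ERB alpha (red, upward) and REV-ERB beta (blue, downward) in each window (grey), by distance of the peak centre from the middle of the window in kb; the height is the number of tags in the peak, filled symbols are shared and open symbols single peaks. Per2 carries a row of 6 shared sites, Cry1 a pair, Cry2 a pair, and Per1 and Per3 none.

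Of the members, 10 sites were shared, meaning that the peak windows of both receptors (153 bp for alpha, 210 bp for beta) overlapped by at least 1 bp. This was 47.6% of the 21 alpha peaks (exact Clopper-Pearson 95% interval 25.7% to 70.2%) against 57.8% of all alpha peaks outside chromosome 8, and 55.6% of the 18 beta peaks (30.8% to 78.5%) against 60.3% of the whole beta list. Both intervals, which treat peaks as independent, include the share of the whole list. Of the shared sites, 6 lay in Per2, 2 in Cry1, 2 in Cry2, and 0 in Per1 and Per3. Per3, without an alpha peak, could have none. With few peaks per locus, exact intervals of the shared percentage were wide. For alpha they were 0% to 70.8% in Per1 (3 peaks) and 26.2% to 87.8% in Per2 (10 peaks). In Cry1 (2 peaks) and Cry2 (6 peaks) they were 15.8% to 100% and 4.33% to 77.7%. These all include the alpha list's 57.8%. For beta, only the Per1 interval (4 peaks, 0% to 60.2%) fell just short of its list's 60.3%. Sharing was not tested between loci. Centres of the shared pairs were a median of 21 bp apart, against 28 bp over all 13314 shared peaks. In Cry1 and Cry2 the distances were 2, 11, 3 and 9 bp, whereas in Per2 they ranged from 7 to 136 bp.

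Per2, a Period gene whose product limits CLOCK and BMAL1 activity, had the peak with the most tags at a different place for each receptor. The highest beta peak of all 5 loci spanned positions 93317060 to 93317270 of chromosome 1. It held 241 beta tags over an input of 2, rank 266 of its list. Its alpha partner at 93317126 to 93317278 had 77 tags over an input of 2, rank 1945 of its list. The highest alpha peak of Per2 was elsewhere, at 93336533 to 93336685. It held 120 tags over an input of 6, which is rank 548. A beta peak at 93336741 to 93336951 with 127 tags and 3 input tags stood beside it, its centre 237 bp away, so that the windows did not overlap and both counted as single peaks. Between them, by position, lay a shared site at 93333284 to 93333436 with 101 alpha tags and 168 beta tags, each against 4 input tags. By density over the surrounding 10 kb, however, the shared site at 93317126 was the highest of Per2 for both receptors, 14.1 times for alpha and 21.9 times for beta. By fold over input (tags plus 1 over input tags plus 1) its alpha peak reached 26.0, against 17.3 for the alpha peak with the most tags. By this measure the Per2 alpha peaks at 93353199 to 93353351 (36.0, with 0 input tags) and 93342686 to 93342838 (32.0) were higher still. The 3 places at 93317126, 93333284 and 93336533 held the most tags in the locus. At each of these 3 places both libraries had a peak within 237 bp.

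The remaining shared sites of Per2 were lower. At 93342686 to 93342838 the alpha peak had 63 tags and the beta peak 118, each against 1 input tag. At 93352534 to 93352686 there were 51 alpha and 84 beta tags, each against 3 input tags. The site at 93310202 to 93310354 had 41 alpha tags against 4 input tags and 105 beta tags against 6. The weakest pair, at 93360074 to 93360226, had 27 alpha and 30 beta tags, against 3 and 2 input tags, and its windows overlapped by 46 bp.

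Single peaks of Per2 were found mostly for alpha. One at 93356103 to 93356255 held 61 tags over an input of 4, and the closest beta centre was 3562 bp away. Another at 93353199 to 93353351 had 35 tags against 0 input tags and stood 658 bp from the beta centre of a shared site. The third, at 93308899 to 93309051, had 21 tags, 3 input tags and the lowest score of the alpha list, 14. For beta a peak at 93294353 to 93294563 had 17 tags, 0 input tags and the lowest score of the beta list, 12. The last 2 peaks are at the limit of what the authors' peak caller reported. Neighbouring alpha peaks in Per2 were a median of 3971 bp apart, and beta peaks 7669 bp, against medians of 17862 bp and 16134 bp over the whole lists. The list medians take in gaps along whole chromosomes, whereas the Per2 gaps lie within an 84 kb window. The short gaps therefore restate the number of peaks in that window and are not a separate result.

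Per1, a Period gene that glucocorticoids and other acute signals also induce, had no shared site. Its alpha peak on chromosome 11 at 68910533 to 68910685 was the highest alpha peak of the 5 loci, with 141 tags against 5 input tags, rank 341 of the alpha list. The nearest beta peak, at 68908288 to 68908498, was centred 2216 bp away and had 53 tags against 6 input tags, rank 7442 of the beta list. The 10 kb around this beta peak, which includes the place of the alpha peak, held 501 beta tags, of which 448 lay outside the beta peak itself. That 10 kb count is higher than or equal to that of 92.4% of beta peaks. The beta tags at the place of the alpha peak itself are not in the list, so the absence of a beta peak there is not a measure of absent binding.

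The other Per1 peaks were low. Alpha had 25 tags at 68893696 to 68893848, against 5 input tags, and 22 tags at 68903059 to 68903211, against 3. Beta had 26 tags at 68924078 to 68924288, against 3 input tags, 34 tags at 68937834 to 68938044, against 1, and 18 tags at 68938789 to 68938999, against 2. All 3 of these beta peaks were more than 13 kb from any alpha peak, at 13574, 27330 and 28285 bp. By position the alpha peaks lay in the lower part of the window and most beta peaks in the upper part.

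Per3, the Period gene that is least required for the clock itself, had a single beta peak, at 150419213 to 150419423 on chromosome 4, of 24 tags over an input of 4. Its tag count was higher than or equal to that of 22.4% of beta peaks, and the nearest alpha centre was 145587 bp away. Alpha had no peak in the window, and its closest peak outside lay 83269 bp beyond the edge.

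Cry1, whose product is the stronger repressor of the cryptochrome pair, had few sites, and both were shared. The upper site on chromosome 10, at 84652812 to 84652964 for alpha and 84652772 to 84652982 for beta, had 108 alpha and 120 beta tags, each against 3 input tags. By tags it was rank 767 for alpha and rank 1877 for beta, with centres 11 bp apart. The lower site, at 84624594 to 84624746 for alpha and 84624563 to 84624773 for beta, had 32 and 39 tags, each against 1 input tag, with centres 2 bp apart. The upper site was the higher for both receptors, and the sites were 28218 bp apart by their alpha centres.

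Cry2, the other cryptochrome, had more alpha than beta peaks, all of moderate or low height. The shared site with the most tags, on chromosome 2 at 92272555 to 92272707 for alpha, had 39 alpha and 65 beta tags, each against 5 input tags. The other, at 92286098 to 92286250 for alpha, had 27 alpha and 34 beta tags, each against 1 input tag. The highest alpha peak of Cry2, at 92229554 to 92229706, was single, with 50 tags over an input of 5, and lay 14149 bp from the closest beta centre. A further 3 alpha peaks were single: 31 tags at 92274333 to 92274485, against 4 input tags, 18 tags at 92262266 to 92262418 and 16 tags at 92252707 to 92252859, both against 0 input tags. The last of these had the lowest score of the alpha list. The single beta peak, at 92286849 to 92287059, had 46 tags against 11 input tags, the highest input of any member and the lowest ratio to input, 3.92 (tags plus 1 over input tags plus 1).

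The members' median heights were above those of the lists, while their highest peaks were below the lists' maxima of 456 tags for alpha and 801 for beta. Among the 21 alpha peaks, tags ran from 16 to 141 with a median of 39.0, against a median of 27.0 for all alpha peaks. Above that median were 14, of which 8 were in Per2. The 18 beta peaks ran from 17 to 241 tags with a median of 49.5, against 39.0 for the whole list, and 10 were above it. Above the 90th percentile of their list were 5 alpha peaks, 1 in Per1, 3 in Per2 and 1 in Cry1, where 9.92% of all alpha peaks lie. For beta there were also 5, 4 in Per2 and 1 in Cry1, against 9.93% of all beta peaks. None of the 39 members was among the top 1% of its list. Mean input was 2.95 tags at the alpha members and 3.22 at the beta members, against 2.66 and 3.59 over the whole lists. The highest input of a member was 11 tags, at a beta peak of Cry2.

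The tag counts of the receptors at the 10 shared sites lay near the relation of the whole lists. Over all 13314 shared peaks the median ratio of alpha to beta tags was 0.688. This ratio contains library depth and window width, so each site was set against it. With 1 library per antibody, no test was possible; a 2-fold distance from the median was used as a limit of size, and 18.1% of all shared peaks were that far from it. Of the members 1 site of 10 was, the Per2 site at 93317126, which had 77 alpha and 241 beta tags: its ratio was 2.15-fold below the median, a log2 value of -1.11 (exact interval from counting error, -1.5 to -0.73). To the beta side, 9.71% of all shared peaks were as far. The log2 value was -0.52 when tag density over the surrounding 10 kb replaced tags and -0.98 when the centre was taken from the higher shared peaks, so that the site was then within 2-fold.

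The next Per2 site, at 93310202, with 41 alpha and 105 beta tags, had a log2 ratio of -0.82 (-1.37 to -0.28). Intervals of these 2 sites excluded the median, as did those of 39.4% of all shared peaks. The other 4 Per2 sites had log2 ratios from -0.36 to 0.39, and the 4 sites in Cry1 and Cry2 from -0.20 to 0.39. In all, 6 of the 10 sites were below the median ratio and 4 above it, and their median was -0.18, against quartiles of -0.51 and 0.49 over all shared peaks. By tags, both Cry1 sites lay slightly to the alpha side, at 0.26 and 0.39, and 5 of the 6 Per2 sites to the beta side. Only the Per2 sites at 93317126 and 93310202 had intervals that excluded the median, so the loci are not told apart by this. With tags over input tags in place of tags, the lower Cry1 site had a log2 ratio of -0.07, the upper Cry2 site -0.12 and the Per2 site at 93360074 -0.36. Each of these 3 was above 0 with tags alone. The upper Cry1 site had 0.06 by that measure. With density over the surroundings, 3 sites changed sign: the Per2 site at 93360074 went from 0.39 to -0.34, the upper Cry2 site from 0.21 to -0.14 and the Per2 site at 93333284 from -0.19 to 0.02.

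**Figure D3:**
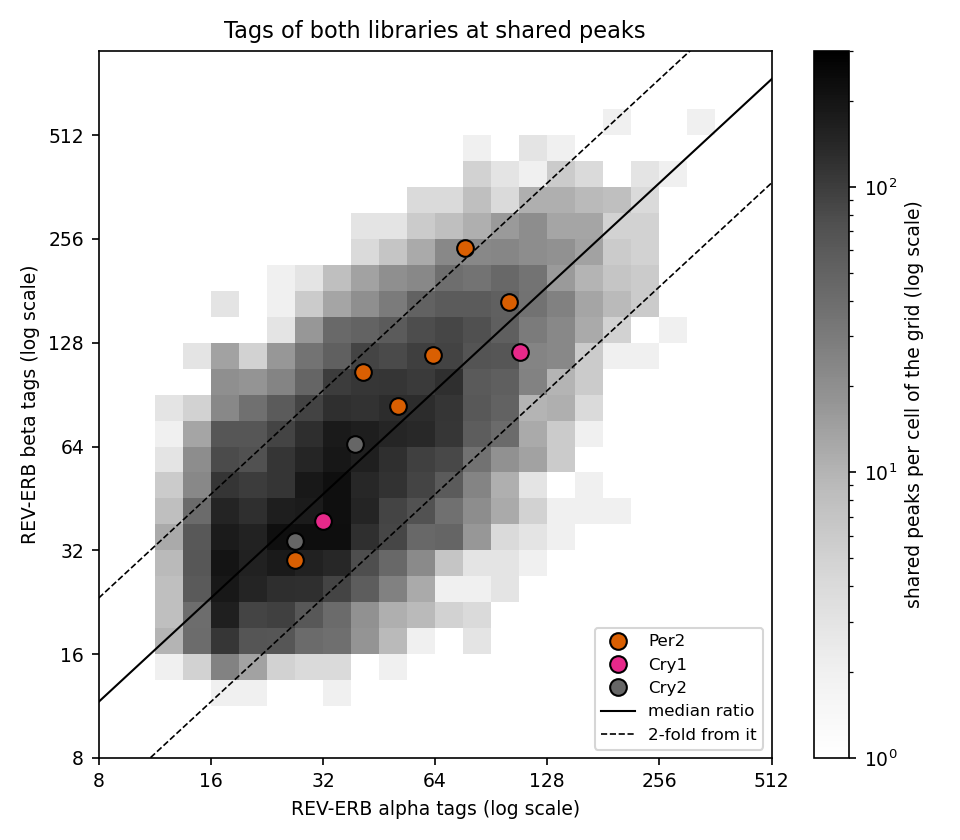
Tags of REV-ERB beta against tags of REV-ERB alpha (both log scales) at the 10 shared sites of Per2, Cry1 and Cry2, over all shared peaks of the lists (grey, number per grid cell); the solid line is the median ratio of 0.688 and dashed lines are 2-fold from it. The Per2 site with 241 beta tags is the only coloured point beyond a dashed line.

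**Figure D4:**
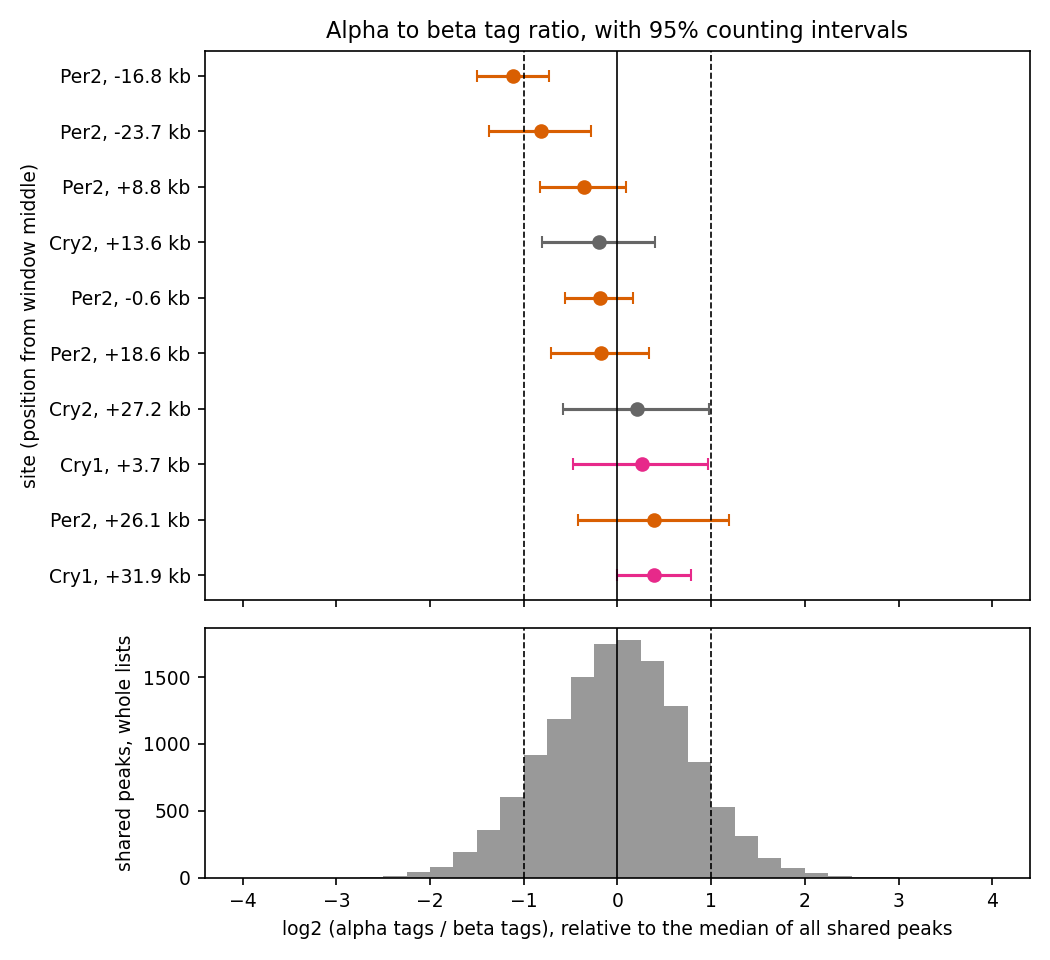
Upper panel, log2 ratio of alpha to beta tags at each shared site relative to the median of all shared peaks, with 95% exact intervals from counting error, sites named by their position from the middle of the window; lower panel, the same ratio for all 13314 shared peaks. Values run from -1.11 to 0.39, and only the lowest is beyond the dashed line at 2-fold.

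Most Per2 peaks had more tags in the 10 kb around their centre, the peak's own included, than the Cry1 peaks. Tags in the 10 kb around each alpha peak ranged from 299 to 765 in Per2, with a median of 492.5, against a median of 203 for all alpha peaks. Above the 90th percentile of 10 kb counts were 7 of the 10 Per2 alpha peaks and 5 of the 8 beta peaks, where 9.93% of alpha peaks and 10.0% of beta peaks of the lists lie. These 10 kb windows overlap and include the peak itself and neighbouring peaks, so they are not independent. The tag density in Per2 peaks was 4.86 to 14.1 times that of the surrounding 10 kb for alpha (median 9.25) and 6.85 to 21.9 times for beta (median 11.6). Both medians were below those of the lists, 11 and 12.3. The upper Cry1 site had 261 alpha and 257 beta tags in its 10 kb, of which 108 and 120 lay in the peaks themselves. Its density was 45.4 and 40.8 times that of the surroundings, higher than or equal to 97.2% of alpha and 95.2% of beta peaks. The lower Cry1 site had 137 alpha and 178 beta tags in its 10 kb, of which 32 and 39 lay in the peaks themselves. It was 19.6 and 13.1 times as dense as its surroundings, the beta value being near the list median. The main Per1 alpha peak, with 530 tags in 10 kb, was 23.3 times as dense as its surroundings. Cry2 alpha peaks were 4.62 to 10.8 times as dense, all below the list median, and the 3 Cry2 beta peaks 10.9, 11.9 and 14.1 times, of which the first 2 were also below their list median.

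**Figure D5:**
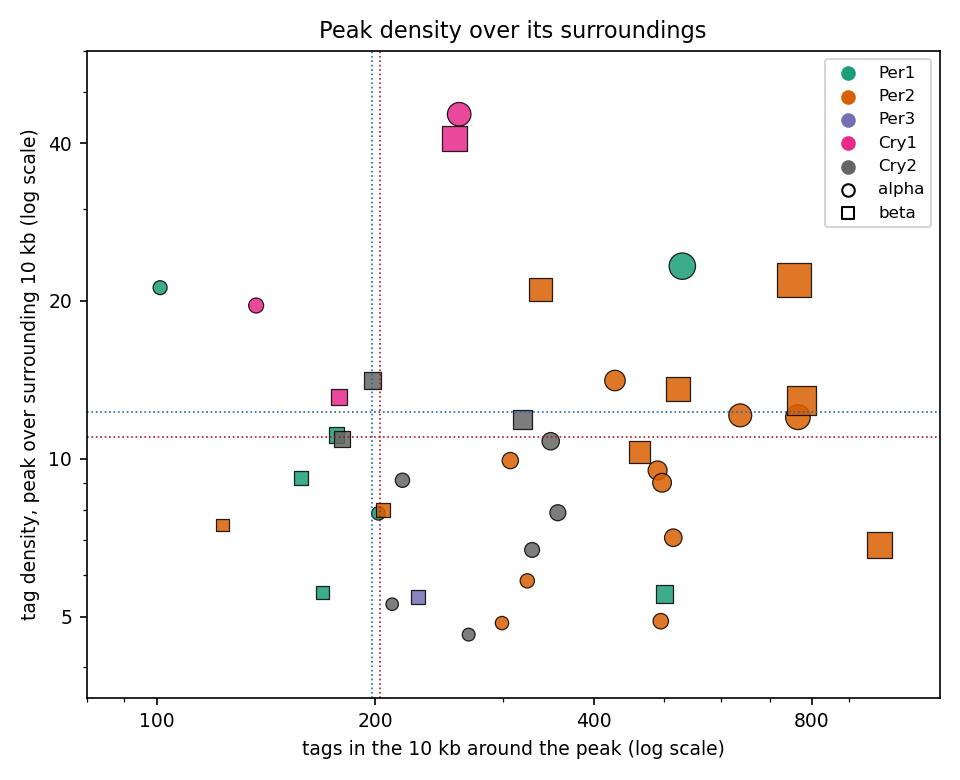
Tag density of each member over that of the surrounding 10 kb against all tags in those 10 kb, the peak's own included (both log scales). Symbols are coloured by locus, circles for alpha and squares for beta, with symbol area rising with tags. Dotted lines are the list medians. The upper Cry1 site stands highest at 45.4 and 40.8, and most Per2 peaks lie to the right. The axes share the 10 kb count and are not independent.

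The median number of tags per unique position, a measure of repeated tags, was 1.24 in the alpha members and 1.67 in the beta members, against 1.17 and 1.60 in the whole lists. At the Per2 site with the most beta tags, 241 tags lay at 125 unique positions, and the 77 alpha tags at 58. With unique positions its log2 ratio was -1.02.

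Narrowing every window by 10 kb at each end left 18 alpha peaks, 13 beta peaks and 9 shared sites, with 1 of the 3 Cry2 beta peaks and 2 of the 4 Per1 beta peaks still inside. The member closest to an edge was the beta peak with 17 tags, 2458 bp inside the lower edge of the Per2 window. The closest peak outside any window was a beta peak on chromosome 2 at 92215376 to 92215586, with 123 tags, 7519 bp below the Cry2 window; it had more tags than any beta peak inside that window.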

How the data were processed

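The libraries were fixed, per the labels' protocols, for 30 minutes in 2 mM disuccinimidyl glutarate and 10 minutes in 1% formaldehyde. Bowtie and HOMER were used with mm9, per the submitters' processing notes; their versions, the filters on reads and the library totals are not given in the sources here. The authors deposited 1 peak list per antibody with raw tag counts that are not scaled to depth, and the window sums were 910669 alpha and 1227074 beta tags. The deposited peak score is the caller's own. The deposited FDR (false discovery rate) is 0 in every row and was not used.

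Members and lists were chosen with earlier results of these data known. Peaks were shared at 1 bp of overlap. Every peak in the windows is named or counted; the planned list of other clock genes and motifs within peaks were not run, as they need mm9 annotation or sequence. Intervals are 95% exact (Clopper-Pearson) and cover counting error only, and repeated tags need not be independent molecules. Density is tags per bp in the peak over the remaining tags per bp in its 10 kb. The code for pairing, ratios and intervals was run on simulated data. Those sites were spaced more widely than the closest Per2 alpha peaks (665 bp) and had counting error only. The simulation therefore checked the code and not how well pairs or intervals hold in these data. Alternatives were stricter peaks, narrower windows, other overlap rules and other height measures; leaving out Per2, moved tiles and occupied tiles were added after the values were seen. Python 3.11.15, numpy 2.4.6, pandas 2.3.3, scipy 1.17.1 and matplotlib 3.10.9 were used.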

Additional observations from a re-analysis of the deposited data

How the results depend on the processing

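The number of alpha peaks in the windows ranged from 14 to 21 and of beta peaks from 10 to 18 under the alternatives with all 5 windows; the lowest values came from the top 50% of each list, which kept 14 alpha and 10 beta peaks. Shared sites numbered from 7 to 11, with 8 when the windows had to overlap by 50% of both peaks or centres had to lie within 100 bp, and 11 with centres within 500 bp. Per1 and Per3 had 0 shared sites under every one of these alternatives, but no alternative could have given one. Per3 had no alpha peak, and the closest alpha and beta centres in Per1 were 2216 bp apart, beyond the loosest rule of 500 bp. Per2 weighs most: without it 11 alpha peaks, 10 beta peaks and 4 shared sites were left, so 36.4% of those alpha peaks were shared. Of the 10 shared sites, 1 was at least 2-fold from the median ratio with tags (18.1% of all shared peaks were), 1 with unique positions (14.2%), 1 with fold over input (27.0%), 0 with density over the 10 kb background (16.5%) and 0 with the centre taken from higher shared peaks (18.2%). Tiles shifted along the chromosomes gave 0.431% for the alpha peaks of Per2 in place of 0.35%. No paired analysis was possible because there is a single library of each kind; for the same reason none could be left out. Total depth was not used here, and a peak below the callers' lowest score cannot be told from an absent one.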
